A study of Mus musculus with 6 samples.

Results

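The large ribosomal subunit is put together from ribosomal RNA and proteins by a long series of assembly factors, and 48 mouse genes that encode such factors of the nucleolus and nucleoplasm were examined here. They were taken by name as known factors of this subunit. The rule for membership uses no measured value, but the list was drawn up with earlier results of these data known. All 48 were found among the 22332 gene symbols of the deposited table, and all 48 passed the filter on low counts, among 15084 genes tested. Total RNA, freed of ribosomal RNA, was sequenced from the mouse embryonic stem cell line CGR8, 48 hours after transfection with siRNA. The siRSL24D1 libraries came from cells given an siRNA pool against Rsl24d1 (n = 3), and the siCtrl libraries from cells given a non-targeting pool (n = 3). Both groups grew on gelatin with 10% serum (FBS) and added LIF, a cytokine that keeps such cells pluripotent. Knockdown was by a pool of siRNAs in 1 cell line. The comparison asks how transcripts of the assembly line respond when Rsl24d1, itself an assembly factor of this subunit, is reduced.

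Assembly of the large subunit begins in the nucleolus on a precursor RNA that also carries the RNA of the small subunit. The first factors fold the RNA and install early ribosomal proteins, RNA helicases and methyltransferases act on it, and complexes such as PeBoW are needed before the spacer between the 5.8S and 28S RNA can be cut. AAA ATPases then pull factors off the particle, the 5S particle is brought in, and the last factors are released in the cytoplasm. Embryonic stem cells divide rapidly and make ribosomes at a high rate.

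Between 30943635 and 35214000 estimated counts stood behind each library, and 0 pairs of libraries were identical. The lowest count of any of the 48 genes in a library was 451, that of Ddx51. Rsl24d1 mRNA was at 53.8, 55.6 and 52.1 CPM in the siRSL24D1 libraries, against 99.4, 103 and 97.9 CPM in the siCtrl libraries, which is 0.538 of its siCtrl level (log2 fold change -0.89, standard error 0.044, edgeR adjusted p = 2.0e-05). Of 10 embryonic stem cell markers, 6 fell and 1 rose, with a summed level (CPM of library totals, as for the other marker sums) of 2648 to 2747 CPM in siRSL24D1 and 3039.5 to 3376 CPM in siCtrl. Nanog, a pluripotency factor, averaged 176 ± 6.44 CPM in siRSL24D1 and 247 ± 11.2 CPM in siCtrl, and Tdgf1, a co-receptor of Nodal, 434 ± 5.32 CPM in siRSL24D1 and 668 ± 25.5 CPM in siCtrl (SD, n = 3 each). Nanog, Tdgf1, Fgf4, Dppa5a, Esrrb and Utf1 fell, to 0.712, 0.650, 0.682, 0.722, 0.888 and 0.894 of their siCtrl levels, and Zfp42 rose 1.18-fold. Pou5f1, Sox2 and Klf4 did not pass, Pou5f1 averaging 482 ± 28.6 CPM in siRSL24D1 and 482 ± 37.9 CPM in siCtrl. Summed neuroectoderm markers (6 genes, 3 rose and 1 fell) were at 331 to 391 CPM in siRSL24D1 and 235 to 246 CPM in siCtrl. Nes made up most of this sum, averaging 301 CPM in siRSL24D1 and 211 CPM in siCtrl. Nes, Neurod1 and Tubb3 rose, Elavl3 fell, and Pax6 and Sox1 did not pass. Summed fibroblast (7 of 8 genes tested, 1 rose and 2 fell), endoderm (5 of 6, 2 rose and 1 fell) and trophoblast markers (5 of 6, 3 rose and 1 fell) overlapped between the groups, at 123 to 149, 17.4 to 19.0 and 85.8 to 89.0 CPM in siRSL24D1 and 125 to 159, 17.1 to 19.6 and 85.9 to 88.9 CPM in siCtrl. No marker was at 0 in all libraries. Lum, Sox7 and Elf5 were too low to be tested, with at most 12 counts. The part of these markers in the results below was not tested.

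More of the assembly factor transcripts rose than fell. In siRSL24D1 cells, 24 of the 48 rose (50%), 1 fell (2.08%) and 23 did not pass the test (edgeR quasi-likelihood test, Benjamini-Hochberg adjusted p under 0.05 over all genes tested). Over all 15084 genes, 21.2% were called higher and 20% lower. Among the 7960 genes at least as abundant as the least abundant factor, 24% were called higher and 21.4% lower. The median log2 fold change of the 48 was 0.13, against 0.02 over all genes tested, and 41 of the 48 values were above 0. The changes were small. They ran from a log2 fold change of -0.19 (Noc2l, 0.879 of the siCtrl level) to 0.45 (Nifk, 1.36-fold), and 0 of 48 factors changed 1.5-fold or more, against 13.5% of all genes tested. That share was not matched for level, and the median siCtrl level was 107 CPM for the factors and 20.3 CPM for all genes. In bulk RNA, fewer cells with a transcript and less of it per cell cannot be told apart.

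**Figure D1:**
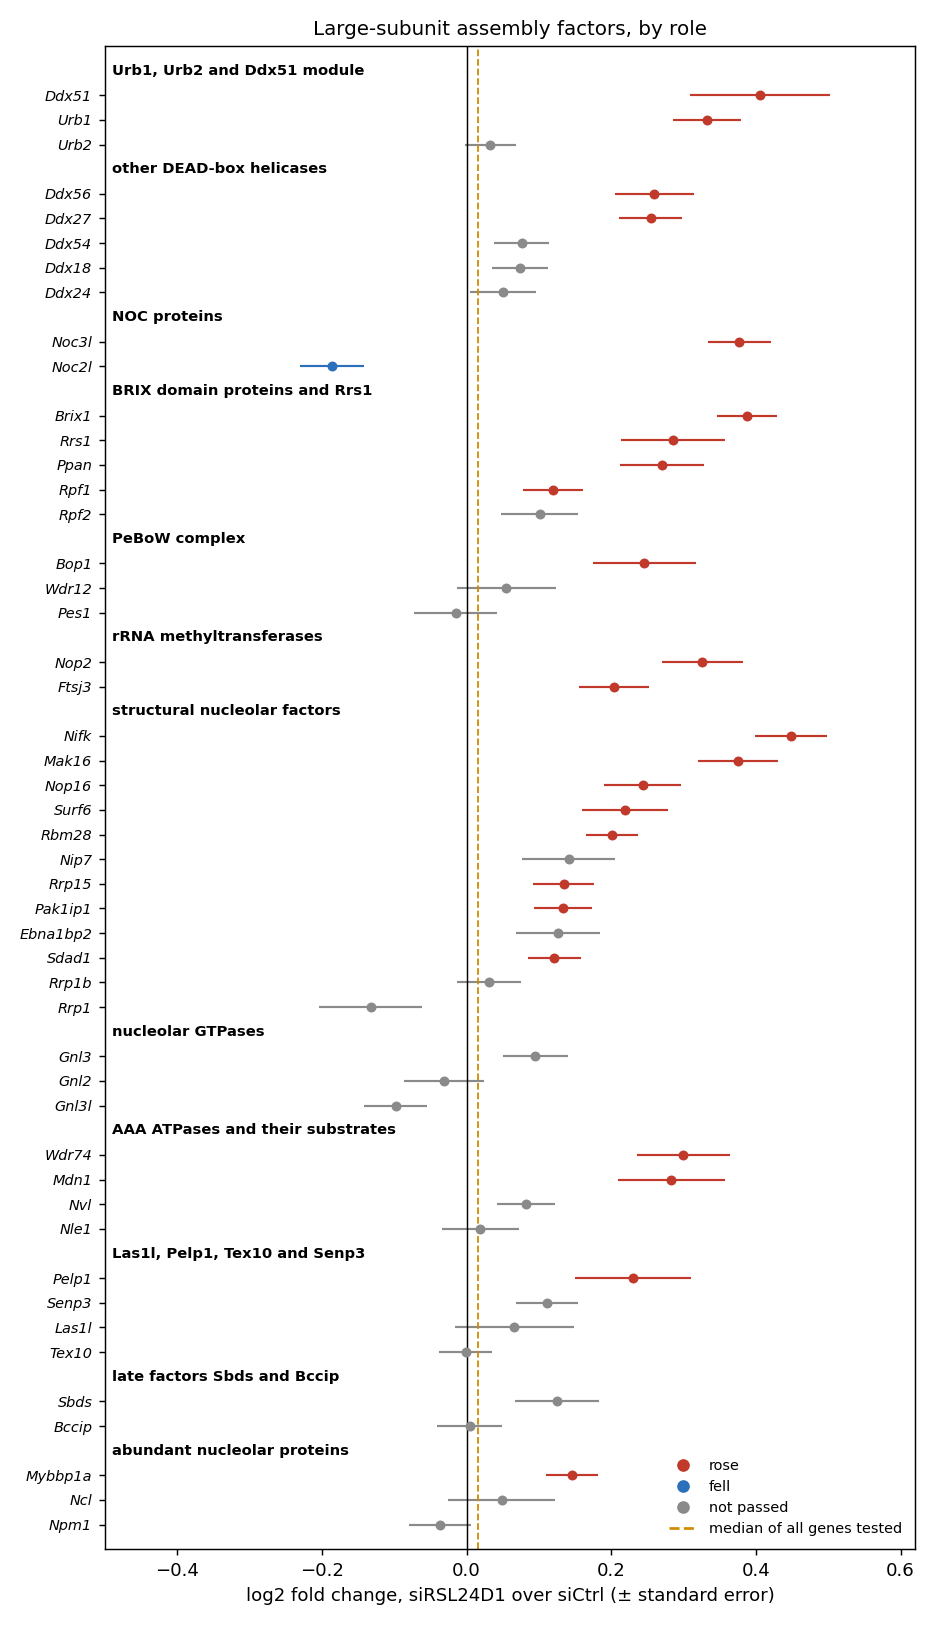
Log2 fold changes (siRSL24D1 over siCtrl, x axis) of the 48 factors grouped by role, with standard errors from the edgeR fit over 3 libraries a group. Points are coloured by whether the gene rose, fell or did not pass at an adjusted p under 0.05, and 24 points are in the colour for a rise, Nifk being highest at 0.45 and Noc2l, at -0.19, the single fall.

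**Figure D2:**
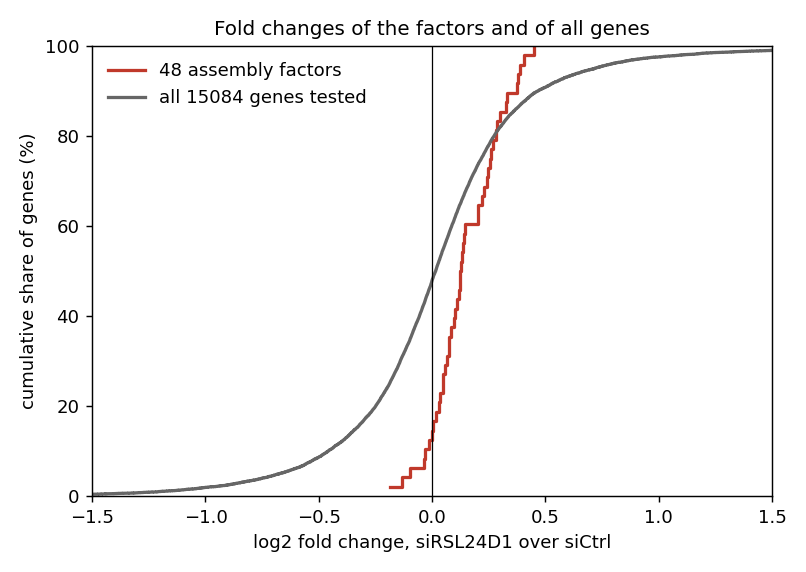
Cumulative share of genes (y axis, percent) by log2 fold change (x axis, siRSL24D1 over siCtrl) for the 48 factors and for all 15084 genes tested. The curve of the factors spans -0.19 to 0.45 with its median at 0.13, and the curve of all genes is wider with its median at 0.02.

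For 31 of the 48 factors the 3 siRSL24D1 libraries and the 3 siCtrl libraries did not overlap, with 29 higher (60.4%) and 2 lower (4.17%). Over all genes tested, 26.8% were higher and 26.2% lower without overlap. The 2 lower factors were Noc2l and Gnl3l. The factors took 1.215%, 1.252% and 1.226% of all counts in the siRSL24D1 libraries, against 1.175%, 1.158% and 1.132% in the siCtrl libraries. Npm1 and Ncl alone held 0.517%, 0.536% and 0.525% in siRSL24D1 and 0.536%, 0.529% and 0.510% in siCtrl, so the groups overlapped for this pair. The other 46 factors together held 0.699%, 0.716% and 0.701% in siRSL24D1, against 0.639%, 0.628% and 0.622% in siCtrl, with no overlap.

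**Figure D3:**
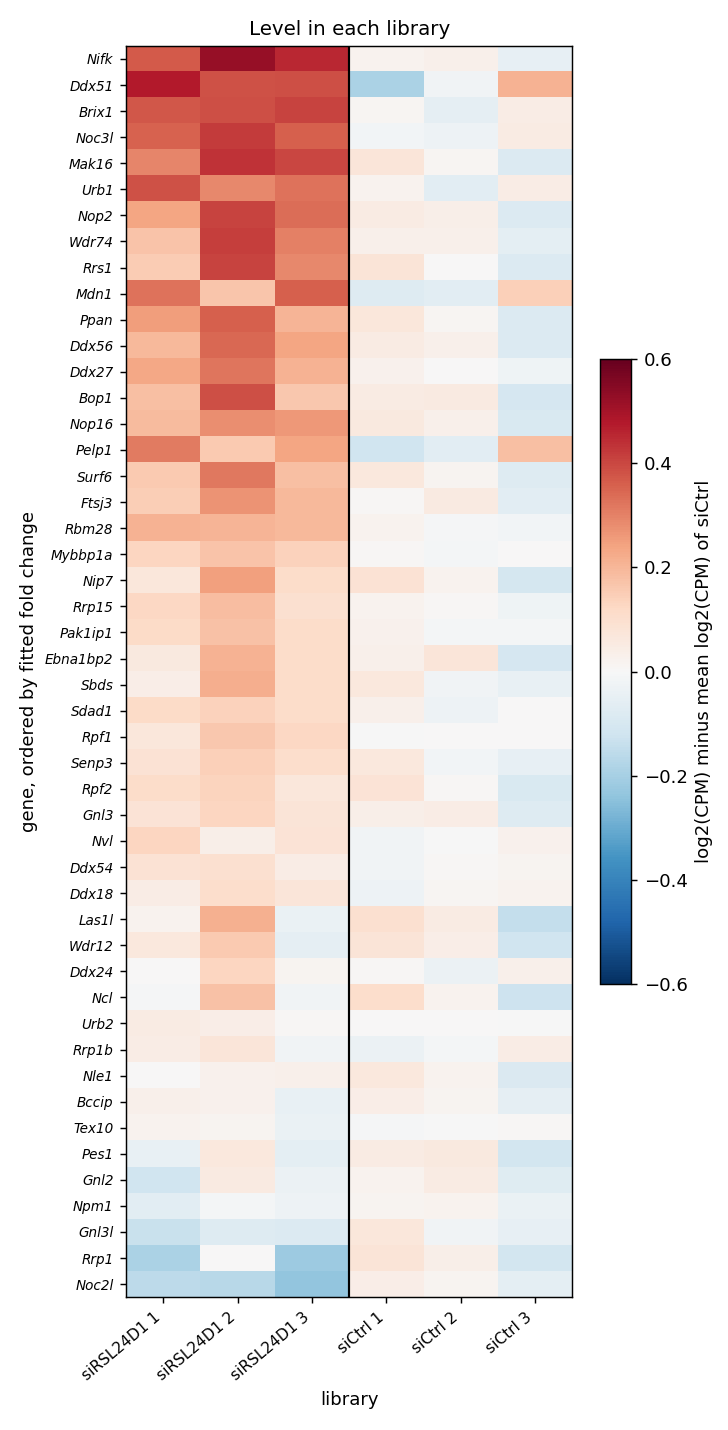
Level of each factor (rows, ordered by fitted fold change) in each library (columns, 3 siRSL24D1 and 3 siCtrl), as log2 CPM minus the mean log2 CPM of the siCtrl libraries. Red rows such as Nifk, Brix1 and Noc3l are high in all 3 siRSL24D1 libraries, while Noc2l is low in all 3.

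The count of risers depended on the libraries used. It was 18 to 20 when any library other than siCtrl 2 was left out, with 15.6% to 22.0% of all genes called higher. Without siCtrl 2 it was 14, with 14.5% of all genes called higher, against 21.2% with all 6 libraries. Noc2l did not pass without siCtrl 2 (adjusted p = 0.0531), so that 0 factors were then called lower, Rrp1 also fell without siRSL24D1 2 (adjusted p = 0.0324), and Rrp1 and Gnl3l also fell without siCtrl 3 (adjusted p = 0.0356 and 0.0400). The calls of 12 risers held in all 20 alternative settings, which were Urb1, Ddx27, Ddx56, Noc3l, Brix1, Ppan, Nop2, Nifk, Nop16, Mak16, Rbm28 and Wdr74. Ddx51 lost its call only at the stricter threshold of 0.01.

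Promoter windows of 39 of the 48 genes, 250 bases before to 50 bases after the start, were matched by symbol in RefSeq (GRCm38.p6). They came to 45 windows, since 5 genes had more than 1 annotated start. The motif CCGGAAG, the core that ETS factors such as GABP bind, was searched on both strands and found in 19 of 39 (48.7%), against 17.9% of the 11664 tested genes with a window. It was in 9 of the 19 risers with a window and in 10 of the 20 other factors with one. Counted once each by genome position, these were 28 sites, of which 23 began within 50 bases of an annotated start. CACGTG, the E-box that MYC binds, reads the same on both strands and was in 9 of 39 (23.1%), against 11.2% of all, with 5 in risers and 4 in the others. CCAAT was in 28.2% against 42.9% of all, TATAAA in 10.3% against 9.5%, each read on both strands, and the palindromic NRF1 motif in 0 of 39 against 2.1%. A match describes the letters only, and the shares over all genes were not matched for level. The 150 bases before the start are shown for the largest riser (Nifk), for 4 risers with a match there (Brix1, Nop2, Wdr74 and Surf6) and for Noc2l, 5′ to 3′ in the direction of the gene, with CCGGAAG, its reverse complement CTTCCGG and CACGTG in capitals.
Nifk, chr1:118321693-118321842, plus strand: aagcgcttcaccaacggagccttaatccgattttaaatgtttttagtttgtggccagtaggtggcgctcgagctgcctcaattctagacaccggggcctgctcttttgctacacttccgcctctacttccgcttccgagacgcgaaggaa
Brix1, chr15:10485938-10486087, minus strand: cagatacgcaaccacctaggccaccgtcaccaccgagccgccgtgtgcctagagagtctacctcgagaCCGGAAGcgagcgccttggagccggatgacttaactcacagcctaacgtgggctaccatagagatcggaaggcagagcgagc
Nop2, chr6:125131733-125131882, plus strand: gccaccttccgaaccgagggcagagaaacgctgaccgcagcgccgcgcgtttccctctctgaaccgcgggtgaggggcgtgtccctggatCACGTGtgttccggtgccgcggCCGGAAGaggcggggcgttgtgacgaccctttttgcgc
Wdr74, chr19:8735689-8735838, plus strand: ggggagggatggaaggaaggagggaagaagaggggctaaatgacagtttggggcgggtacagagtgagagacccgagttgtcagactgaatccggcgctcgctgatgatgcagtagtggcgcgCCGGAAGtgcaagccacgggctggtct
Surf6, chr2:26902888-26903037, minus strand: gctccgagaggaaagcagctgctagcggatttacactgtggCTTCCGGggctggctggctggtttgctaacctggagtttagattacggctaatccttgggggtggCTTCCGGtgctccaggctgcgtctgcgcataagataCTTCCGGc
Noc2l, chr4:156235860-156236009, plus strand: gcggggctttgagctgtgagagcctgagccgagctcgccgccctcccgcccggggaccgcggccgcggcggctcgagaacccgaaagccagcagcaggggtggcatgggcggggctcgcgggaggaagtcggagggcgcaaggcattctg
Surf6 holds 3 copies of CTTCCGG in this stretch, and Nop2 holds CACGTG upstream of CCGGAAG. Neither motif occurs in the printed stretch of Nifk. None occurs in that of Noc2l either, but its window holds CCGGAAG 3 bases after the start at which the stretch ends, and Noc2l is counted among the 10 above.

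Of the earliest factors, the scaffold gene Urb1 and the helicase gene Ddx51 rose. In yeast their counterparts Npa1 and Dbp6 sit in 1 module with Npa2, the counterpart of Urb2. Urb1 (chromosome 16, 90751527 to 90810413, GRCm38) was at 92.7, 86.8 and 89.2 CPM in the siRSL24D1 libraries, against 72.2, 68.0 and 73.3 CPM in the siCtrl libraries (log2 fold change 0.33, standard error 0.047, edgeR adjusted p = 0.000985). Ddx51 (chromosome 5, 110653451 to 110660496) was at 21.7, 20.3 and 20.4 CPM in the siRSL24D1 libraries, against 13.6, 15.4 and 18.02 CPM in the siCtrl libraries (log2 fold change 0.41, standard error 0.097, edgeR adjusted p = 0.0112). Its siCtrl libraries spread more than its siRSL24D1 libraries, with siCtrl 3 nearest to them, and the groups did not overlap. Urb2 was at 214, 212 and 207 CPM in the siRSL24D1 libraries, against 206, 207 and 206 CPM in the siCtrl libraries, a difference of 0.03 on the log2 scale that did not pass (adjusted p = 0.494).

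Among the other 5 DEAD-box helicases, which unwind RNA in the particle, Ddx27 and Ddx56 rose. Ddx27 was at 139, 148 and 136 CPM in the siRSL24D1 libraries, against 120.2, 118 and 116 CPM in the siCtrl libraries (log2 fold change 0.25, standard error 0.043, edgeR adjusted p = 0.00233). Ddx56 was at 121, 135 and 125 CPM in the siRSL24D1 libraries, against 109.8, 109 and 100.2 CPM in the siCtrl libraries (log2 fold change 0.26, standard error 0.055, edgeR adjusted p = 0.00634). In both, siRSL24D1 2 was the highest library and the groups did not overlap. Ddx54, Ddx18 and Ddx24 had log2 fold changes of 0.08, 0.07 and 0.05 and did not pass. Ddx18 stood at 112, 116 and 114 CPM in the siRSL24D1 libraries, against 106, 109 and 109.8 CPM in the siCtrl libraries (adjusted p = 0.158).

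The NOC genes went in opposite directions. Noc3l, whose yeast counterpart travels with Noc2 on nuclear particles, was at 66.4, 69.5 and 66.6 CPM in the siRSL24D1 libraries, against 51.3, 50.8 and 53.8 CPM in the siCtrl libraries (log2 fold change 0.38, standard error 0.044, edgeR adjusted p = 0.000399). Noc2l, which besides its place in assembly is known as an inhibitor of histone acetylation that binds p53, was at 124, 124 and 117 CPM in the siRSL24D1 libraries, against 142, 140.0 and 133 CPM in the siCtrl libraries (log2 fold change -0.19, standard error 0.044, edgeR adjusted p = 0.0103). Exons of Noc2l overlap those of Samd11 on the other strand, and reads of the 2 genes cannot be told apart if strand was not used in counting. The same holds for the risers Bop1 with Mroh1, Mak16 with Tti2 and Mybbp1a with Spns2. Every siRSL24D1 library lay above every siCtrl library for Noc3l and below every siCtrl library for Noc2l. The fall of Noc2l did not pass without siCtrl 2, as given above.

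Of the 4 BRIX domain proteins, RNA-binding factors of related fold, Brix1, Ppan and Rpf1 rose, as did Rrs1, the partner of Rpf2. Brix1 (chromosome 15, 10474779 to 10485947) was at 104, 105 and 106 CPM in the siRSL24D1 libraries, against 80.9, 77.1 and 82.6 CPM in the siCtrl libraries (log2 fold change 0.39, standard error 0.042, edgeR adjusted p = 0.000279). Its 3 libraries of each group lay close together. Rrs1 was at 39.8, 47.3 and 43.7 CPM in the siRSL24D1 libraries, against 37.8, 35.8 and 33.9 CPM in the siCtrl libraries (log2 fold change 0.29, standard error 0.072, edgeR adjusted p = 0.0140), a call lost without siCtrl 2 (adjusted p = 0.0539). Ppan had a log2 fold change of 0.27 (adjusted p = 0.00701). Rpf1 had a log2 fold change of 0.12, at the edge of the threshold (adjusted p = 0.0499), and lost its call in 14 of 20 alternatives. Rpf2, which in yeast brings the 5S particle to the pre-ribosome together with Rrs1, was at 57.9, 58.9 and 56.3 CPM in the siRSL24D1 libraries, against 56.9, 54.0 and 50.5 CPM in the siCtrl libraries, with overlapping groups (log2 fold change 0.10, adjusted p = 0.162).

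In the PeBoW complex, which is needed to process the spacer RNA before the 28S RNA, 1 of 3 subunits rose. Bop1 was at 99.9, 115 and 98.7 CPM in the siRSL24D1 libraries, against 91.1, 91.4 and 82.1 CPM in the siCtrl libraries (log2 fold change 0.25, standard error 0.071, edgeR adjusted p = 0.0246). This call was lost without siRSL24D1 2, siCtrl 2 or siCtrl 3 (adjusted p = 0.0540, 0.0539 and 0.0533) and with a GC correction (adjusted p = 0.0569). Pes1 was at 308, 331 and 304 CPM in the siRSL24D1 libraries, against 329, 330.1 and 294 CPM in the siCtrl libraries, and Wdr12 at 271, 289 and 249.99 CPM in the siRSL24D1 libraries, against 274, 267 and 239 CPM in the siCtrl libraries. Both overlapped between the groups (adjusted p = 0.855 and 0.555).

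Both ribosomal RNA methyltransferase genes rose. Nop2, which methylates a cytosine of the 28S RNA, was at 177, 199 and 189.7 CPM in the siRSL24D1 libraries, against 156, 154 and 142 CPM in the siCtrl libraries (log2 fold change 0.33, standard error 0.056, edgeR adjusted p = 0.00254). Ftsj3, related to yeast Spb1, had a log2 fold change of 0.20 (adjusted p = 0.0108), a call lost with the GC correction (adjusted p = 0.0541). For both genes the siRSL24D1 libraries lay above all siCtrl libraries.

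Of 12 factors grouped as structural nucleolar factors, 8 rose and 4 did not pass. Nifk, an RNA-binding protein that also binds the proliferation marker Ki-67 (chromosome 1, 118321839 to 118333822), was at 115, 128 and 122 CPM in the siRSL24D1 libraries, against 90.4, 91.0 and 86.1 CPM in the siCtrl libraries (log2 fold change 0.45, standard error 0.050, edgeR adjusted p = 0.000327). Mak16 was at 229, 252 and 246 CPM in the siRSL24D1 libraries, against 197, 188 and 176 CPM in the siCtrl libraries (log2 fold change 0.38, standard error 0.055, edgeR adjusted p = 0.00117). Both had siCtrl 3 as the lowest of the 6 libraries and siRSL24D1 2 as the highest. Nop16, Surf6 and Rbm28 had log2 fold changes of 0.24, 0.22 and 0.20 (adjusted p = 0.00765, 0.0186 and 0.00300), and Surf6 lost its call without siCtrl 2 (adjusted p = 0.0635). Rrp15, Pak1ip1 and Sdad1 had log2 fold changes of 0.13, 0.13 and 0.12 (adjusted p = 0.0327, 0.0274 and 0.0305). These 3 smaller rises kept their call in 7, 10 and 5 of 20 alternatives, Sdad1 losing it with the length correction among others (adjusted p = 0.495). Nip7 and Ebna1bp2 had log2 fold changes of 0.14 and 0.13 without passing. Rrp1 and Rrp1b are paralogs, and how reads common to both were counted is not known here, so their values are uncertain. Rrp1 was at 169.9, 194 and 166 CPM in the siRSL24D1 libraries, against 204, 198 and 179 CPM in the siCtrl libraries (adjusted p = 0.170), and Rrp1b at 82.3, 84.1 and 78.7 CPM in the siRSL24D1 libraries, against 78.0, 79.2 and 82.6 CPM in the siCtrl libraries (adjusted p = 0.606).

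None of the 3 nucleolar GTPase genes passed (edgeR, 0 of 3 also at an unadjusted p under 0.05 and 0 of 3 by DESeq2 and limma-voom). Gnl3, known as nucleostemin and abundant in stem cells, was at 213, 221 and 213 CPM in the siRSL24D1 libraries, against 207, 208 and 191 CPM in the siCtrl libraries (log2 fold change 0.09, adjusted p = 0.125). Its relative Gnl3l was at 189, 197 and 196 CPM in the siRSL24D1 libraries, against 217, 204 and 201 CPM in the siCtrl libraries (log2 fold change -0.10, adjusted p = 0.107). The groups did not overlap for either gene, Gnl3 being higher and Gnl3l lower in siRSL24D1. Gnl3l passed as lower without siCtrl 3, as given above, and Gnl3 passed as higher when libraries were scaled by their totals (adjusted p = 0.0435). Gnl2 had a log2 fold change of -0.03 with overlapping groups.

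Of the AAA ATPases and their substrates, Mdn1 and Wdr74 rose. Mdn1 encodes midasin, the giant ATPase that strips factors from the particle, and it was at 623, 557 and 636 CPM in the siRSL24D1 libraries, against 469.6, 475 and 548 CPM in the siCtrl libraries (log2 fold change 0.28, standard error 0.073, edgeR adjusted p = 0.0159). Its lowest siRSL24D1 library, siRSL24D1 2, stood next to its highest siCtrl library, siCtrl 3. The call was lost without siRSL24D1 1, siRSL24D1 3, siCtrl 1 or siCtrl 2 (adjusted p = 0.0594, 0.0627, 0.0552 and 0.0682). It was also lost with the transcript length correction, which put Mdn1 at a log2 fold change of 0.04 (adjusted p = 0.719). Wdr74, which the ATPase Nvl releases, had a log2 fold change of 0.30 (adjusted p = 0.00706), without overlap. Nvl was at 169, 159 and 164 CPM in the siRSL24D1 libraries, against 153, 155 and 158 CPM in the siCtrl libraries (log2 fold change 0.08, adjusted p = 0.135). Nle1, the counterpart of the yeast midasin substrate Rsa4, had a log2 fold change of 0.02 and did not pass.

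In the group that cuts the second internal spacer and follows it out of the nucleolus, Pelp1 rose by 0.23 on the log2 scale (adjusted p = 0.0498). It was at 96.5, 86.7 and 91.7 CPM in the siRSL24D1 libraries, against 71.6, 74.4 and 88.2 CPM in the siCtrl libraries, and siCtrl 3 overlapped with siRSL24D1. The call of Pelp1 was lost without siRSL24D1 1, siRSL24D1 3, siCtrl 1 or siCtrl 2 (adjusted p = 0.155, 0.115, 0.142 and 0.153). Las1l, the endonuclease of that spacer, was at 83.6, 95.4 and 80.0 CPM in the siRSL24D1 libraries, against 87.8, 85.0 and 74.6 CPM in the siCtrl libraries (adjusted p = 0.549). Senp3, a SUMO protease of the nucleolus, had a log2 fold change of 0.11 and Tex10 of 0.00, neither passing.

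The late factors Sbds and Bccip did not pass (edgeR, 0 of 2 also at an unadjusted p under 0.05 and 0 of 2 by DESeq2 and limma-voom). Sbds, which helps to release Eif6 from the new subunit, was at 47.5, 53.8 and 49.96 CPM in the siRSL24D1 libraries, against 48.3, 45.5 and 44.9 CPM in the siCtrl libraries (log2 fold change 0.12, adjusted p = 0.121). Bccip had a log2 fold change of 0.00.

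Of the abundant nucleolar proteins, Mybbp1a rose by 0.15 on the log2 scale (adjusted p = 0.0126), a call lost without siCtrl 2 (adjusted p = 0.0755), with the GC correction (adjusted p = 0.0605) and with the length correction (adjusted p = 0.176). Npm1, nucleophosmin, was at 4155, 4309 and 4251 CPM in the siRSL24D1 libraries, against 4395, 4418 and 4233 CPM in the siCtrl libraries (log2 fold change -0.04, adjusted p = 0.524). Ncl, nucleolin, was at 938, 1068 and 929 CPM in the siRSL24D1 libraries, against 1015, 957 and 866 CPM in the siCtrl libraries (adjusted p = 0.634). Both overlapped between the groups, and siRSL24D1 2 was the highest Ncl library.

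Ratios of partner genes within a library do not depend on the scaling between libraries, and 6 such pairs were compared. They were not corrected for transcript length, in which partners can differ. The Noc2l to Noc3l ratio was 1.87, 1.78 and 1.76 in the siRSL24D1 libraries, against 2.77, 2.75 and 2.48 in the siCtrl libraries, a difference of -0.56 on the log2 scale. Bop1 to Pes1 was at 0.325, 0.348 and 0.324 in the siRSL24D1 libraries, against 0.277, 0.277 and 0.279 in the siCtrl libraries (difference 0.26). Gnl3l to Gnl3 was at 0.886, 0.890 and 0.919 in the siRSL24D1 libraries, against 1.05, 0.983 and 1.05 in the siCtrl libraries (difference -0.19). The groups did not overlap for these 3 pairs, nor for Rpf2 to Rrs1, which was at 1.46, 1.24 and 1.29 in the siRSL24D1 libraries, against 1.51, 1.51 and 1.49 in the siCtrl libraries (difference -0.18). In each of these 4, the two-sided exact permutation p was 0.1, the smallest that 3 against 3 libraries allow, and 0.15 adjusted over the 6 ratios. Rrp1b to Rrp1 was at 0.485, 0.433 and 0.473 in the siRSL24D1 libraries, against 0.383, 0.400 and 0.460 in the siCtrl libraries, and Wdr12 to Pes1 at 0.882, 0.873 and 0.821 in the siRSL24D1 libraries, against 0.834, 0.809 and 0.812 in the siCtrl libraries. These 2 pairs overlapped between the groups (exact permutation p = 0.2, also after adjustment). Wdr12 has a transcript of 10012 bases and Pes1 of 2911. Their log2 fold changes were 0.055 and -0.015, and -0.11 and -0.035 after the correction for length, so their order turned.

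**Figure D4:**
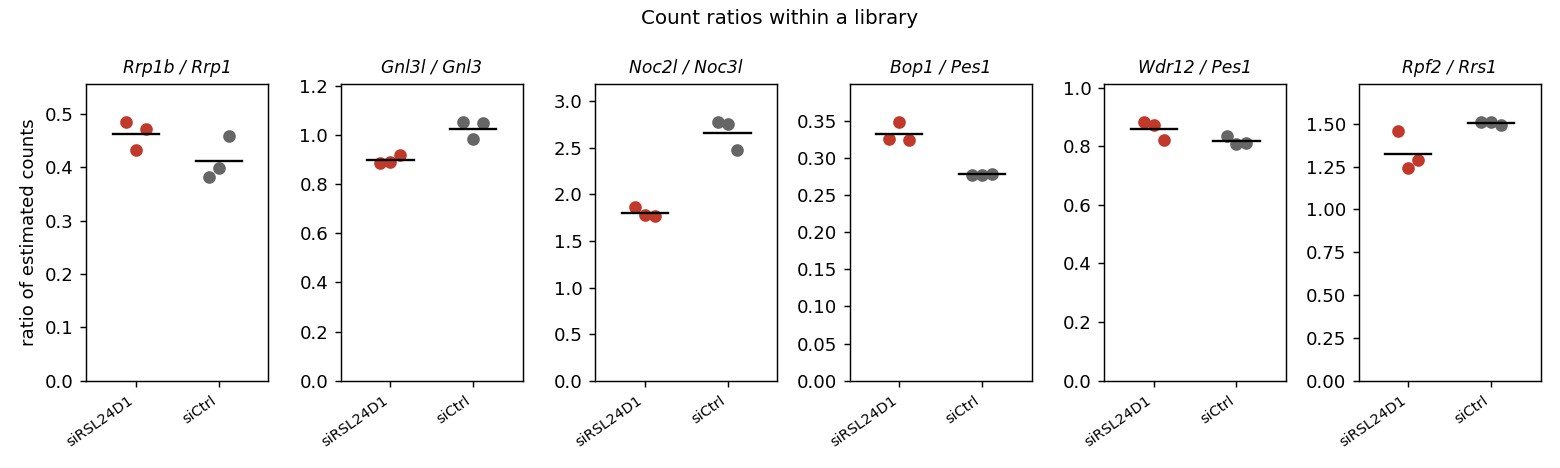
Ratio of the estimated counts of 2 partner genes within each library (y axes, starting at 0) for 6 pairs, with 3 siRSL24D1 libraries left of 3 siCtrl libraries in each panel and a bar at the geometric mean. Noc2l to Noc3l lies at 1.76 to 1.87 in siRSL24D1 and 2.48 to 2.77 in siCtrl.

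A list of 35 other genes of the pathway, including export and cytoplasmic factors, was examined beside them. Of 35 tested, 20 rose and 1, the targeted Rsl24d1, fell, with a median log2 fold change of 0.21. Over all genes tested, 21.2% were called higher and 20% lower, with a median of 0.02. Ccdc86, related to yeast Cgr1, was at 26.7, 29.9 and 31.3 CPM in the siRSL24D1 libraries, against 15.9, 15.9 and 19.2 CPM in the siCtrl libraries (log2 fold change 0.79, standard error 0.092, edgeR adjusted p = 0.000397). The helicase genes Ddx55 and Dhx33 rose by 0.58 and 0.48 on the log2 scale (adjusted p = 0.000276 and 7.5e-05). All 3 had groups that did not overlap. Besides Rsl24d1, Gtpbp4, a GTPase of the early particle, had a log2 fold change of -0.10 (adjusted p = 0.0529) and did not pass. It passed as lower in 7 alternatives, which were DESeq2 size factors, upper-quartile scaling, the 1 CPM filter, limma-voom, the length and the GC correction each with the replicate block, and without siCtrl 3. Nsa2 also passed as lower without siCtrl 3. Lyar passed as lower without siRSL24D1 2.

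Transcript length moved with both the groups and the libraries. Over 15073 genes, the log2 fold change had a Spearman correlation of 0.15 with transcript length, and over the 48 factors of -0.04. The genes share the same 6 libraries. Within the groups, the deviation of a library from its group mean had a Spearman correlation with length, over 12522 genes, of 0.28, -0.48 and 0.35 in siRSL24D1 1, 2 and 3, and of -0.40, -0.36 and 0.51 in siCtrl 1, 2 and 3. Of the 48 factors, 14, 42 and 14 lay above their group mean in siRSL24D1 1, 2 and 3. In siCtrl 1, 2 and 3 the numbers were 38, 31 and 15. The annotated transcripts of the factors had a median of 2689 bases, against 3020 over all genes. After a correction for length, 23 factors rose and 1 fell, and 21 of the 23 were among the 24 above. Of all genes, 19.2% were then called higher and 23.3% lower. Mdn1, with the longest transcript of the 48 at 17959 bases, lost its call as given above. Sdad1 had a corrected log2 fold change of 0.05 (adjusted p = 0.495) and Mybbp1a of 0.09 (adjusted p = 0.176). Rpf2 and Sbds passed as higher, at 0.14 and 0.14 (adjusted p = 0.0367 and 0.0471).

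**Figure D5:**
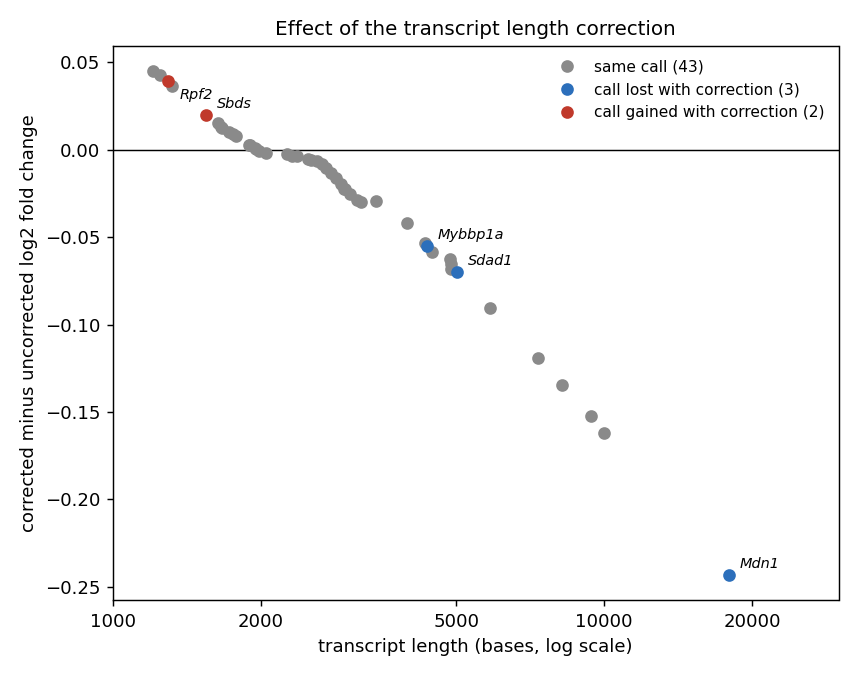
Change in log2 fold change made by the length correction (y axis) for each of the 48 factors by transcript length (x axis, bases, log scale). Mdn1 moved down most, and the 3 calls lost and 2 gained are named.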

How the data were processed

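The values used are estimated counts per gene symbol, as deposited by the authors for 6 libraries. STAR 2.7.0f, Salmon 0.14.1 and GRCm38 are named, per the submitters' processing notes. What each tool did, the annotation release and the strand setting are not stated in the labels. A stranded kit with removal of ribosomal RNA was used, per the labels' protocols, and the series' design calls the triplicates independent. In each library 21.6% to 22.6% of values were not whole (tolerance 1e-09), and all were rounded.

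Low genes were removed by filterByExpr at a minimum count of 10 and a minimum total of 15. After TMM scaling, a two-sided quasi-likelihood test (edgeR 4.0.16, R 4.3.3) compared the groups, with Benjamini-Hochberg adjustment over 15084 genes. Levels are TMM-scaled CPM. Lengths and positions are those of GENCODE M21 genes (GRCm38), and promoter windows are from RefSeq (GRCm38.p6). Alternatives used DESeq2 1.42.0, voom in limma 3.58.1, other scalings and filters, loess corrections for length or GC (span 0.3), the replicate block and each library left out. Unrounded values and the background at the factors' level were added after seeing the data.

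The factors, gene lists and ratio pairs were chosen with earlier results of these data known. The rule for named genes gave values by library to the 6 largest rises, the fall, the ratio partners, Npm1, Ncl, Mdn1, Nvl, Las1l, Sbds and Ddx18, and named the 3 largest rises and the falls among other pathway genes. Urb2, Ddx27, Ddx56, Nop2 and Pelp1, and Gtpbp4, Nsa2 and Lyar, were added after their values were seen, as were the promoters shown. On data simulated for this comparison (14953 genes), calls were made for 44% of the genes altered 1.25-fold, for 84% at 1.5-fold, for 98% at 2-fold and for 0.0881% of unaltered genes. Only 50 genes were altered at each fold there, whereas 41.2% of all genes passed in the real data. The adjusted threshold was therefore stricter in the simulation, which also held no trend with transcript length. These rates may not hold for the real comparison.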

Additional observations from a re-analysis of the deposited data

How the results depend on the processing

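The median log2 fold change of the factors stayed above 0 in all alternatives, at 0.09 to 0.15 (0.10 to 0.14 with a library left out). At an adjusted p under 0.01, 12 factors rose and 0 fell (edgeR), while 12.503% of all genes were called higher and 12.377% lower. The fall at an adjusted p under 0.05 was Noc2l. With a library left out, 14 to 20 rose and 0 to 3 fell, and in the pathway list 16 to 20 rose and 1 to 3 fell. Other scalings, filters and tests gave 19 to 27 risers and 1 fall, and GC corrections 17 and 19 risers without and with the replicate block. Under the other scalings, filters and tests, 15.25% to 23.75% of all genes were called higher and 15.05% to 22.43% lower. The GC corrections called 17.46% and 18.83% of all genes higher, and 21.75% and 23.40% lower. Same-numbered libraries correlated at -0.42, 0.35 and 0.36 in their deviations from the group mean over 12531 genes. The highest correlation, 0.62, was of siRSL24D1 2 with siCtrl 1, and siRSL24D1 1 correlated best with siCtrl 3 (0.44). These deviations also moved with transcript length, so they cannot tell whether the numbers pair the samples. With the replicate block 23 factors rose and 1 fell, and with the length correction and the block 22 rose and 2 fell (Noc2l and Gnl3l). In these 2 settings 22.1% and 20.4% of all genes were called higher, and 20.6% and 24.5% lower. In the pathway list 2 genes, Rsl24d1 and Gtpbp4, fell under DESeq2 size factors, upper-quartile scaling, the filter of 1 CPM, limma-voom, and the length or GC correction with the block. All 6 ratios kept their direction with any library left out, but none was corrected for length. The block gave a sign-flip p of 0.25, the smallest that 3 pairs allow.

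In these alternatives the log2 fold change turned only for factors that did not pass. Under DESeq2 size factors, upper-quartile scaling, no filter and the DESeq2 test Bccip was at -0.0071, -0.024, -0.0020 and -0.0071, and Nle1 at -0.0093 under upper-quartile scaling. With library totals Pes1 was at 0.0082 and Tex10 at 0.022, and with the 1 CPM filter Tex10 was at 0.00019. The length correction gave Urb2 -0.058, Wdr12 -0.11, Rrp1b -0.034, Nvl -0.070, Ncl -0.086, and with the block Urb2 -0.057, Wdr12 -0.10, Rrp1b -0.036, Nvl -0.068, Ncl -0.083. The GC correction gave Urb2 -0.0041, Wdr12 -0.0066, Nle1 -0.022, Bccip -0.021, and with the block Urb2 -0.0042, Wdr12 -0.0063, Nle1 -0.020, Bccip -0.021. With a library left out the ranges were Pes1 -0.080 to 0.0096, Gnl2 -0.080 to 0.011, Bccip -0.036 to 0.029, Las1l -0.015 to 0.12, Ncl -0.025 to 0.10, Tex10 -0.011 to 0.018, Wdr12 -0.016 to 0.11, Nle1 -0.036 to 0.052. The cause was not tested. Small changes can be missed with 3 libraries a group.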

Other observations

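Some factor genes share a start region with another gene. For 15 of the 48 (31.2%), a protein-coding gene on the opposite strand began within 1000 bases, against 14.4% of 15056 tested protein-coding genes. The latter share was not matched for level. Of the 14 such neighbours tested, 5 rose and 3 fell, where 21.2% of all genes tested were called higher and 20% lower. Ddx51 starts 34 bases from Noc4l, a small-subunit factor gene that rose by 0.23 on the log2 scale (edgeR adjusted p = 0.0153). Ftsj3 starts 75 bases from Psmc5, a proteasome subunit gene, which averaged 232 CPM in siRSL24D1 and 178 CPM in siCtrl (log2 fold change 0.38, adjusted p = 0.00124). The neighbours of the other 3 risers with a tested neighbour, Rad1 beside Brix1, Hsf1 beside Bop1 and Higd2a beside Nop16, did not pass, with log2 fold changes of 0.01, 0.02 and -0.08. Cog8, Tyw1 and Uros also rose, by 0.21, 0.22 and 0.45 on the log2 scale, beside Nip7, Sbds and Bccip, which did not pass. The 3 neighbours that fell, Taf5l, Carf and Hsf2bp, stand beside Urb2, Wdr12 and Rrp1b, which did not pass.

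Within 3 factor genes lie annotated small nucleolar RNA genes on the same strand, 3 each in Gnl3 and Ncl and 2 in Ppan (GENCODE M21). Small nucleolar RNAs themselves are not analysed here.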
